A study of Mus musculus with 12 samples.

Results

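Potassium channel genes were followed in the cerebellum of mice with and without Npc1, a lysosomal membrane protein that exports cholesterol and is mutated in Niemann-Pick type C disease. A member was every probe set (the group of short probes that stands for a transcript on an Affymetrix array) that the platform annotation gives to exactly 1 gene with a symbol starting with Kcn, without Kcne2 and Kcnj13. The rule found 89 probe sets of 61 genes, out of 22626 probe sets that are not controls, and 20 of these genes had several probe sets. Kcne2 had 1 probe set, which was left out, and no probe set of Kcnj13 was found. The study compared 4 sets of 3 arrays, each array holding the cerebellum of an individual animal of the strain BALB/c Npc1: Npc1-/- (null) mice at postnatal day 49 (P49), Npc1+/+ (wild-type, WT) mice at P49, Npc1-/- mice at P21 and Npc1+/+ mice at P21. Per the labels all 12 animals had standard chow, no treatment is named, and all were female except P49 null replicate 1.

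Potassium channels let potassium leave the cell, which sets the resting potential, ends action potentials and paces repetitive firing. Voltage-gated (Kv) channels are built from pore-forming alpha subunits, and auxiliary beta, KChIP and KCNE subunits change their gating and trafficking. Calcium-activated channels couple firing to calcium entry, inward rectifiers clamp the membrane near rest or answer G proteins, and tandem-pore channels carry leak current. In the cerebellum, Purkinje cells fire spontaneously at high rates and rely on calcium-activated and fast Kv channels, granule neurons rely on A-type, leak and G-protein-gated channels, and astroglia clear potassium through an inward rectifier. Purkinje cells are the cells known to be lost in Npc1-null mice.

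Values are intensities, given here as log2(intensity + 16) after quantile normalization, and differences are log2 differences ± SE from limma with n = 3 arrays per group. A probe set was tested when its mean over the 12 arrays reached the 40th percentile, an intensity of 959 or a log2 level of 9.93, which left 13576 probe sets. Of the members, 41 probe sets of 27 genes were tested and 48 were dimmer than this filter, so that 34 genes had no tested probe set. By role, 11 of 23 probe sets of Kv alpha subunits, 13 of 20 of Kv auxiliary subunits, 4 of 14 of calcium- and sodium-activated channels, 6 of 20 of inward rectifiers and 7 of 12 of tandem-pore channels were tested. A call means a Benjamini-Hochberg adjusted p under 0.05 over all 13576 probe sets. Levels of different probe sets were not compared with each other, since probes differ in affinity. Groups are described as apart where their arrays did not overlap. With 3 arrays per group this can occur without a difference. How often it occurred over all tested probe sets was not counted, so it is a description and not a result.

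Genes with dim probe sets alone were found in every role. Among calcium-activated channels these were Kcnn1, Kcnn3, Kcnn4, Kcnmb1, Kcnmb2 and Kcnu1, and among inward rectifiers Kcnj1, Kcnj2, Kcnj4, Kcnj5, Kcnj8, Kcnj11, Kcnj14 and Kcnj15. The Kv alpha subunits Kcna3, Kcna4, Kcna5, Kcna7, Kcnd1, Kcnd3, Kcnh3, Kcnh7, Kcnq1, Kcnq5, Kcns1 and Kcns2 were dim, as were the auxiliary subunits Kcne1, Kcne3, Kcne4 and Kcnip2 and the tandem-pore channels Kcnk4, Kcnk5, Kcnk7 and Kcnk13. Their mean log2 levels lay between 5.60 and 9.87 over all dim probe sets. They enter no count of calls here, and a dim probe set does not show that a gene is silent.

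The labels were checked first. All 6 null arrays lay below all 6 WT arrays for Npc1, and the difference was -1.43 ± 0.37 at P49 (limma adjusted p = 0.0751) and -1.95 ± 0.37 at P21 (adjusted p = 0.101). The female-specific transcript Xist stood at 13.01 and 13.36 on P21 null replicates 2 and 3 and at 9.28 on P21 WT replicate 2, against 15.61 to 15.86 on the other arrays, while the Y-linked Eif2s3y stood at 9.25, 12.67 and 12.72 there, against 4.35 to 8.91 on the other arrays. P21 null replicate 3 and P21 WT replicate 2 were thus apart in both transcripts and go against the label female. P21 null replicate 2 was apart in Xist, but its Eif2s3y lay just above the highest of the other arrays, so its label is in doubt rather than contradicted. P49 null replicate 1, labelled male, had Xist at 15.63 and Eif2s3y at 7.93, which goes against that label. Results that rest on these 3 doubtful P21 arrays are given with and without them below. Array medians ran from 10.65 to 10.92 before normalization. The cerebellar label was matched by tested markers of Purkinje cells (13) and granule neurons (9), while choroid plexus markers varied widely, with summed intensities of 78036 to 207103 on P49 null arrays, 7641 to 34188 on P49 WT arrays, 6760 to 182956 on P21 null arrays and 5953 to 186729 on P21 WT arrays.

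In null cerebellum at P49, 3 channel genes fell, namely Kcnip1 and Kcnab1, which encode auxiliary subunits of Kv channels, and Kcnma1, which encodes the pore of the large-conductance calcium-activated channel. They made up all 5 member probe sets called lower, 5 of 41 or 12.2%, where 0.825% of all tested probe sets were called lower. No member was called higher in limma, where 1.26% of all tested probe sets were called higher. An unadjusted limma p under 0.05 was held in either direction by 8 of the 41, and by 1420 of all 13576 tested probe sets. Of these members, Kcnk2 alone had a positive difference. The median difference of the 41 was -0.13, against -0.02 over all tested probe sets. The other 36 did not pass, and 15 of the 41 differences were positive.

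Kcnip1 encodes a calcium-binding KChIP protein that joins A-type channels of the Kcnd family. Its probe set 1448459_at read 11.85, 11.48 and 11.84 on P49 null arrays, against 12.63, 12.89 and 12.59 on P49 WT arrays. Every null array lay below every WT array, and the 3 P21 null arrays, at 12.80, 12.65 and 12.91, and the 3 P21 WT arrays, at 12.87, 12.74 and 12.80, lay near the P49 WT level. At P49 the difference was -0.98 ± 0.14, a level 0.508 times that of WT (adjusted p = 0.00102). A second probe set, 1416785_at, stood at 11.93, 11.74 and 11.84 on P49 null arrays, against 12.64, 12.57 and 12.50 on P49 WT arrays. Its groups also did not overlap, and it fell by 0.73 on the log2 scale (SE 0.15, adjusted p = 0.0230). The other 2 probe sets of Kcnip1 did not pass: 1433156_at, close to the filter with a mean of 9.95, differed by -0.15 ± 0.32 (adjusted p = 0.948), and 1454504_at was dim with a mean of 8.24. The call of 1448459_at held under all 23 alternative settings (adjusted p 0.000436 to 0.00879). That of 1416785_at was lost without P49 WT replicate 1 (adjusted p = 0.114), 2 (0.0913) or 3 (0.0639) and without P49 null replicate 2 (0.134) or 3 (0.100), in a range of 0.00206 to 0.134 over its settings.

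Kcnab1 encodes a beta subunit of Shaker-type Kv channels that speeds their inactivation. Probe set 1448468_a_at read 13.55, 13.05 and 13.09 on P49 null arrays, against 14.10, 14.29 and 14.19 on P49 WT arrays. P49 null replicate 1 was the highest of the null arrays and still lay below all WT arrays. The difference was -0.96 ± 0.15, a level 0.514 times that of WT (adjusted p = 0.00262), and the call held under all 23 settings. Its other probe set, 1454043_a_at, read 11.99, 11.62 and 11.72 on P49 null arrays, against 12.65, 12.52 and 12.46 on P49 WT arrays. These groups did not overlap either, but the difference of -0.77 ± 0.19 missed the threshold (adjusted p = 0.0642). It passed without the 3 doubtful P21 arrays (-0.77, adjusted p = 0.00354), within a range of 0.00354 to 0.305 over its settings. Left out alone, P21 null replicate 2 (0.0130) or 3 (0.00660) had the same effect on this call, as had a fit of the 6 P49 arrays only (0.00533).

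Kcnma1 opens with both voltage and calcium, and in Purkinje cells its channel shortens spikes and adds to the afterhyperpolarisation. Probe set 1425987_a_at read 12.09, 11.89 and 12.09 on P49 null arrays, against 13.05, 12.58 and 12.84 on P49 WT arrays. Probe set 1424848_at read 11.19, 11.00 and 11.17 on P49 null arrays, against 12.06, 12.34 and 12.21 on P49 WT arrays. In both, every null array lay below every WT array. The differences were -0.80 ± 0.15 (0.573 times, adjusted p = 0.00872) and -1.08 ± 0.20 (0.473 times, adjusted p = 0.00940). The call of 1425987_a_at was lost without P49 WT replicate 1 (adjusted p = 0.0587) or P49 null replicate 2 (0.0638), the highest of a range that began at 0.00340. That of 1424848_at was lost without P49 WT replicate 2 (0.0598) or P49 null replicate 2 (0.0622), the highest of a range that began at 0.000689.

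**Figure D1:**
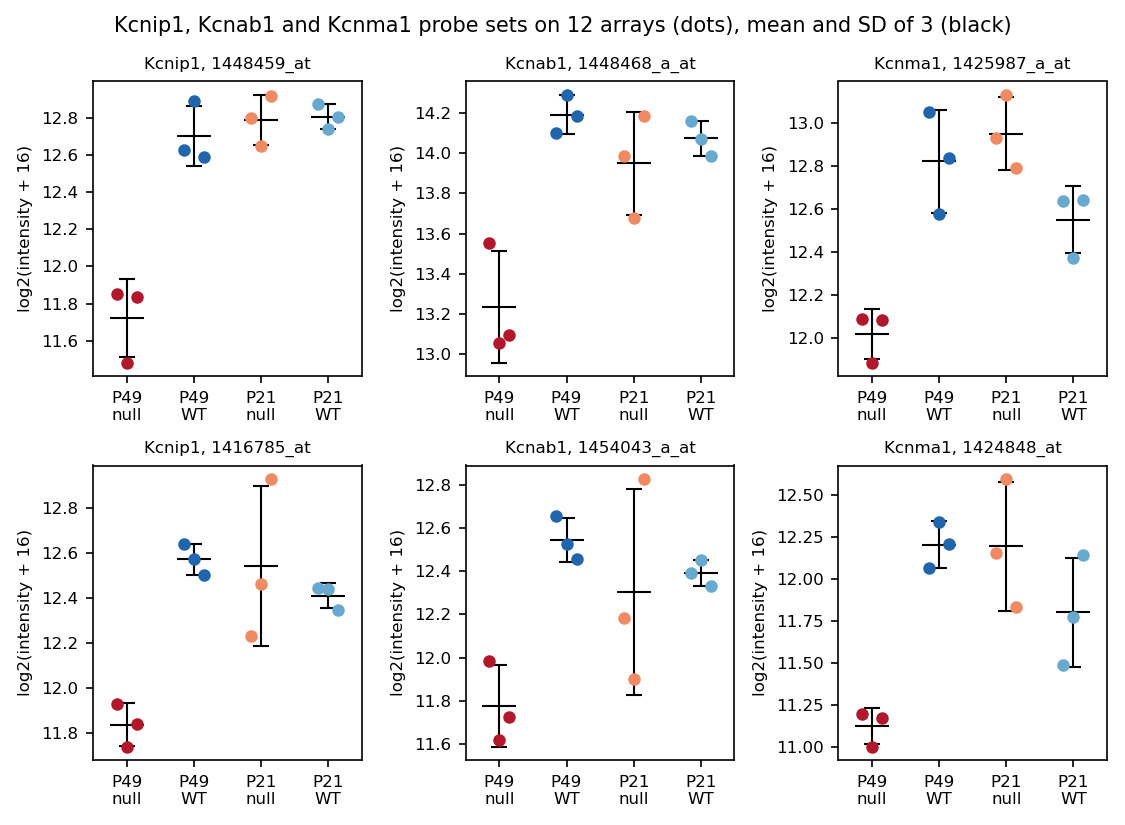
Log2(intensity + 16) of 6 probe sets of Kcnip1, Kcnab1 and Kcnma1 on each of the 12 arrays (dots), with the mean and SD of 3 arrays in black, for P49 null, P49 WT, P21 null and P21 WT. Only tested probe sets whose P49 genotype groups did not overlap are shown. The 3 P49 null arrays thus lie below the 3 P49 WT arrays in each panel by this choice. Kcnip1 1433156_at, which was tested and whose P49 groups overlapped, is left out. The axes do not start at 0.

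The 3 genes lie on different chromosomes, Kcnip1 on 11, Kcnab1 on 3 and Kcnma1 on 14. The 250 bases before the first listed RefSeq start of each (GRCm38.p6) are shown because these genes fell together. Capitals mark every match of the GC box GGGCGG on either strand (its reverse complement reads CCGCCC). Which start the animals used is not known from the arrays, and Kcnip1 and Kcnab1 each have 3 listed starts.
Kcnip1 (chr11:33993194-33993443, minus strand): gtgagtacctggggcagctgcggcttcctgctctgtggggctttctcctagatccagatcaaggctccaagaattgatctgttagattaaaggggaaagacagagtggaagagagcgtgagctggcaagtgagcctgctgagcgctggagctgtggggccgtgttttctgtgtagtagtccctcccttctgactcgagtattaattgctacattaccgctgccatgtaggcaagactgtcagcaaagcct
Kcnab1 (chr3:64948962-64949211, plus strand): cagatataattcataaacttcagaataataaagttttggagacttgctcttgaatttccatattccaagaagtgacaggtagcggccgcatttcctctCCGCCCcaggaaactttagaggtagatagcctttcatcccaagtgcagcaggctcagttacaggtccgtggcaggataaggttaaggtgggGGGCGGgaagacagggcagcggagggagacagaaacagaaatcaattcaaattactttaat
Kcnma1 (chr14:24004206-24004455, minus strand): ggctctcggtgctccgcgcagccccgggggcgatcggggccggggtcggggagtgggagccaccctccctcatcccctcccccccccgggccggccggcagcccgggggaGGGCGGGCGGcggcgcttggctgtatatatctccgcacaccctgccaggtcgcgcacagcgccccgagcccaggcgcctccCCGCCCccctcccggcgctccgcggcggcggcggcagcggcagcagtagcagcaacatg
The windows differ. Kcnma1 held 3 GC box matches, of which 2 overlap, had 79.2% G and C and had 31 CpG steps. Kcnab1 held 2 matches with 45.2% G and C and 6 CpG steps. Kcnip1 held 0 matches with 52.8% G and C and 6 CpG steps, where the median over all windows was 6. These values depend on the start. Before its listed start 2, Kcnip1 held 1 match with 67.6% G and C and 12 CpG steps, and before start 3 it held 0 matches. Kcnab1 held 0 matches before its starts 2 and 3. Neither TATAAA nor AGGTCA, the nuclear receptor half-site, was found on either strand in the 3 windows shown. Of 32851 RefSeq windows of this length, 32.7% held GGGCGG, 12.4% held TATAAA and 14% held AGGTCA. Of the 66 windows of member genes these shares were 45.5%, 1.52% and 4.55%. A match is a run of letters and not a known binding site.

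Among alpha subunits of the Kcnd and Kcna families, which Kcnip1 and Kcnab1 serve, no tested probe set was called at P49. Kcnd1, Kcnd3, Kcna3, Kcna4, Kcna5 and Kcna7 had dim probe sets alone and were not tested. Kcnd2, the A-type alpha subunit of granule neurons and a partner of KChIP proteins, had 3 probe sets with differences of -0.06 ± 0.14, 0.06 ± 0.13 and -0.06 ± 0.09 (adjusted p from 0.901 to 0.949). The other KChIP genes did not pass. Kcnip4 differed by -0.29 ± 0.14 and -0.33 ± 0.20 (adjusted p = 0.515 and 0.660), with the groups apart in its probe set 1451840_at, which read 13.77, 13.48 and 13.47 on P49 null arrays, against 13.90, 13.89 and 13.80 on P49 WT arrays. Kcnip3, also a calcium-binding KChIP, differed by 0.16 ± 0.23 and -0.13 ± 0.15 in its 2 probe sets.

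Among Shaker-type alpha subunits, the partners of the Kcnab beta subunits, Kcna1 differed by -0.15 ± 0.15, Kcna2 by 0.03 ± 0.22 and Kcna6 by -0.80 ± 0.29 (adjusted p = 0.841, 0.989 and 0.284). Kcna6 read 10.24, 10.29 and 9.93 on P49 null arrays, against 10.98, 11.47 and 10.43 on P49 WT arrays. Its groups were apart, but the WT arrays were widely spread, and no setting brought it past the threshold (adjusted p 0.121 to 0.719). The sister beta subunit Kcnab2 differed by -0.06 ± 0.20 and 0.01 ± 0.28, and Kcnab3 by 0.28 ± 0.57. Kcne1l, an X-linked KCNE subunit, differed by 0.12 ± 0.19. Among the auxiliary subunits, 3 of 13 tested probe sets were thus called lower and 0 higher, all of them of Kcnip1 and Kcnab1. Over all tested probe sets 0.825% were called lower and 1.26% higher. The median difference of the 13 was -0.15, and no other auxiliary gene was called.

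The remaining Kv alpha subunits gave no call, so that 0 of 11 tested probe sets passed in limma, with 1 (Kcna6) at an unadjusted p under 0.05 and a median of -0.06. Kcnh1, an ether-a-go-go channel, read 11.72, 11.76 and 11.86 on P49 null arrays, against 12.17, 12.13 and 12.24 on P49 WT arrays. These groups were apart, as groups of so few arrays can be without a difference. The difference of -0.40 ± 0.23, whose SE comes from the spread in all 4 groups, did not pass (adjusted p = 0.631, and 0.0867 at the lowest over the settings). Kcnc1, a fast Shaw-type channel that allows rapid firing, differed by -0.14 ± 0.27, and Kcnc4, another Shaw-type channel, by 0.17 ± 0.32 and 0.09 ± 0.28. The probe set of the second Kcnc4 value ends in _s_at, a suffix Affymetrix gives to probes that can match more than 1 transcript. Kcnh2, an erg channel, differed by 0.01 ± 0.16.

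Within the calcium-activated channels, Kcnma1 was the only gene of 3 called at P49. Kcnmb4, the neuronal beta subunit of the Kcnma1 channel, read 14.08, 14.01 and 13.78 on P49 null arrays, against 14.17, 14.13 and 14.05 on P49 WT arrays. The difference was -0.16 ± 0.14 (adjusted p = 0.820), with overlapping groups. Kcnn2, the small-conductance channel that paces Purkinje cells, read 12.32, 12.90 and 12.84 on P49 null arrays, against 12.33, 12.42 and 12.50 on P49 WT arrays. Replicate 1 of the null arrays lay at the WT level and the other 2 above it, and the difference of 0.27 ± 0.18 did not pass (adjusted p = 0.701).

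Inward rectifiers had the narrowest range of differences among the 5 roles at P49, from -0.20 to 0.10, and 0 of 6 passed in limma (0 at an unadjusted p under 0.05). Kcnj10, the astroglial channel that takes up potassium, read 13.54, 13.66 and 13.55 on P49 null arrays, against 13.67, 13.57 and 13.46 on P49 WT arrays. The groups overlapped and differed by 0.02 ± 0.14 (adjusted p = 0.991). The G-protein-gated channels Kcnj3, Kcnj6 and Kcnj9 differed by -0.20 ± 0.14, by 0.10 ± 0.35 and, in 2 probe sets, by 0.06 ± 0.23 and -0.08 ± 0.10. In the last of these, 1450712_at, the groups were apart although the difference was small (limma adjusted p = 0.885). Kcnj12, a strong inward rectifier, differed by -0.13 ± 0.16.

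Of the tandem-pore channels, 0 of 7 probe sets passed in limma, and 1 (Kcnk2) had an unadjusted p under 0.05. Kcnk2, a leak channel opened by stretch and lipids, read 11.07, 11.63 and 11.92 on P49 null arrays, against 11.06, 10.70 and 10.76 on P49 WT arrays. Null replicate 1 lay just above the highest WT array and the other 2 well above it, and the difference of 0.70 ± 0.21 (1.62 times) did not pass (adjusted p = 0.160). Without P49 null replicate 1 it was 0.94 and passed (adjusted p = 0.0298), in a range up to 0.617. Kcnk1, a weakly conducting channel, differed by -0.24 ± 0.18 and -0.20 ± 0.17, and Kcnk10, a relative of Kcnk2, by -0.31 ± 0.29. The acid-sensitive leak channel Kcnk3 had 3 probe sets with differences between -0.14 and 0.04.

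**Figure D2:**
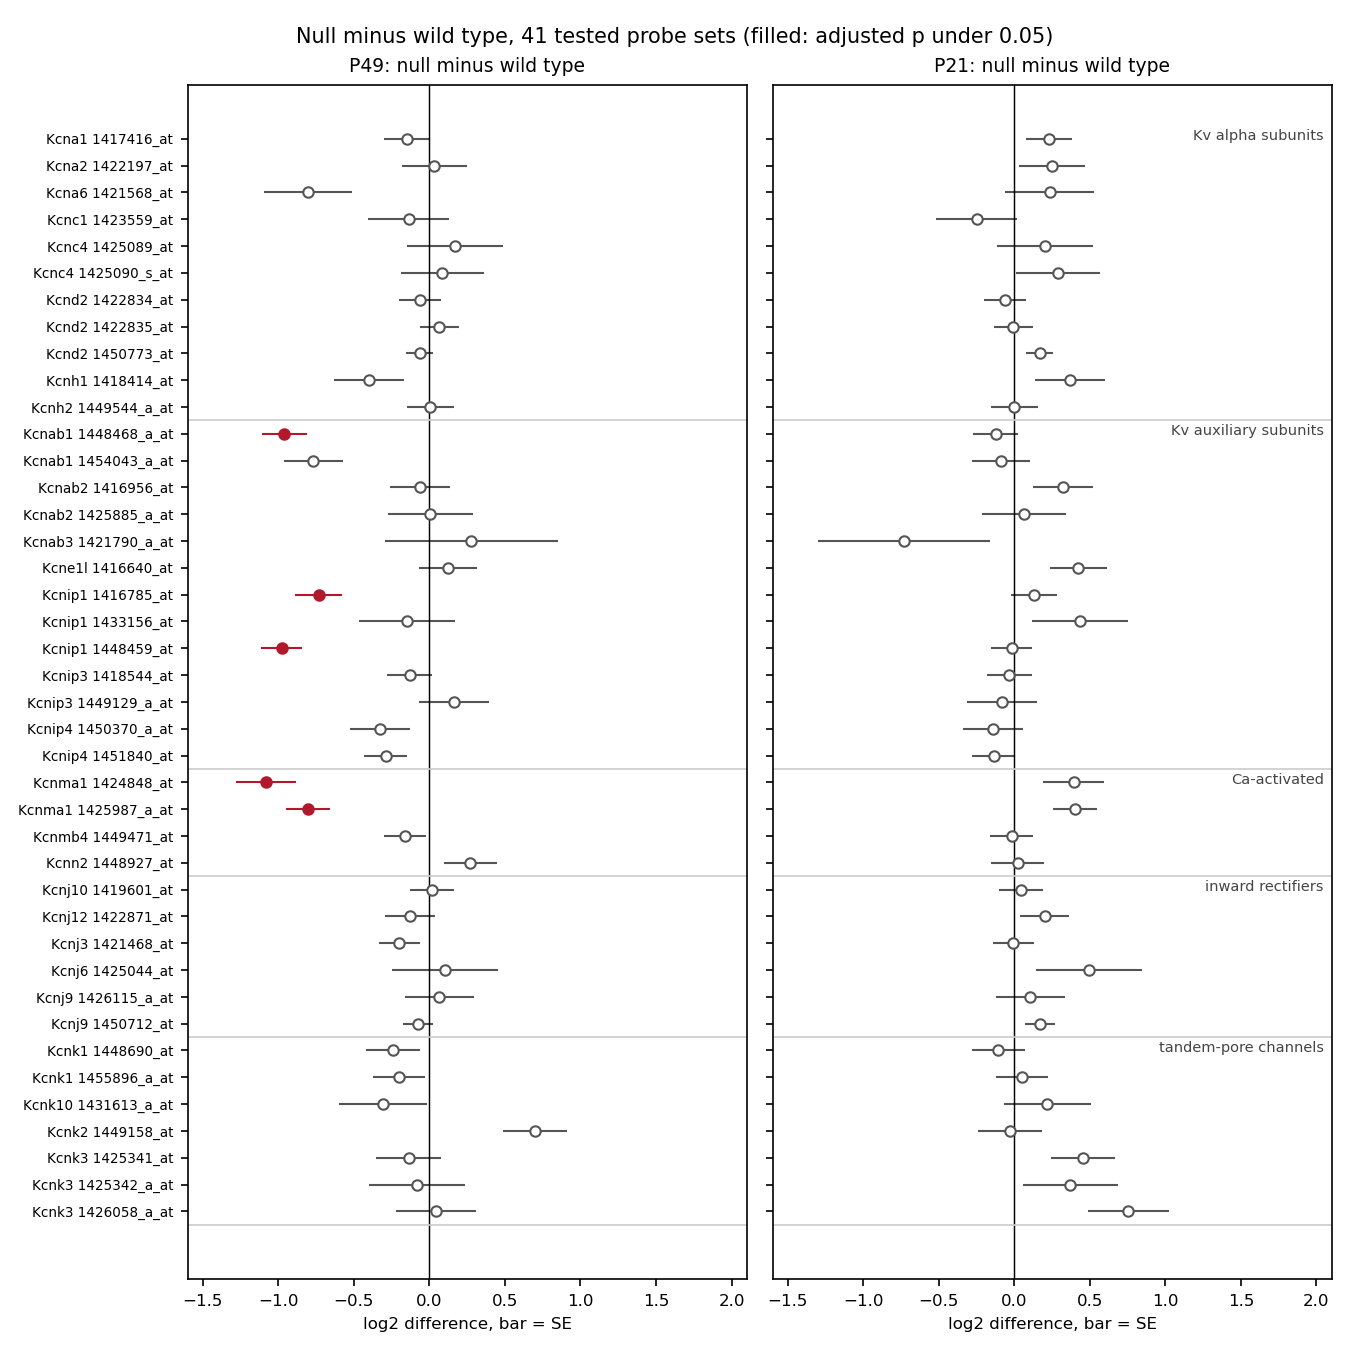
Log2 difference null minus WT with its SE for each of the 41 tested member probe sets, at P49 (left) and P21 (right), grouped by role (Ca-activated stands for calcium- and sodium-activated channels). Filled points have an adjusted p under 0.05: they are the 5 probe sets of Kcnip1, Kcnab1 and Kcnma1 at P49, and none at P21.

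Markers of Purkinje cells moved with these calls. Of 13 tested Purkinje markers, 11 were called lower in P49 null arrays, and all but Homer3 (-1.05, adjusted p = 0.0792) and Plcb4 (-0.25, adjusted p = 0.816) are in that count. Calb1, a calcium buffer, differed by -0.92, Pcp2 by -0.63 and Rgs8 by -1.09. The summed intensity of the 13 markers was 365366 to 547026 on P49 null arrays, 757325 to 783288 on P49 WT arrays, 653927 to 765681 on P21 null arrays and 621861 to 749760 on P21 WT arrays. In whole cerebellum, fewer cells of a type and less RNA per cell cannot be told apart.

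The mean log2 level of the 13 markers was 14.45, 13.87 and 14.08 on P49 null arrays, against 15.06, 15.11 and 15.07 on P49 WT arrays. P49 null replicate 2, the lowest for the markers, was also the lowest P49 null array for all 5 called probe sets. Replicate 1, the highest for the markers, was the highest for all 5. The order covers 3 arrays, and the 5 probe sets belong to 3 genes. Replicates 1 and 3 were nearly level in Kcnip1 1448459_at and in both Kcnma1 probe sets. Whether the order departs from that of other probe sets was not tested. Taken relative to this marker mean on each array, a scale on which only contrasts between groups can be read, Kcnab1 (1448468_a_at) stood at -0.90 in P49 null arrays and -0.89 in P49 WT arrays. Kcnip1 stood at -2.41 and -2.30 in P49 null arrays and at -2.38 and -2.51 in P49 WT arrays (1448459_at first). Kcnma1 stood at -2.11 and -3.01 in P49 null arrays and at -2.26 and -2.88 in P49 WT arrays (1425987_a_at first). On this scale each contrast was smaller than the same probe set's own difference, which lay between -0.73 and -1.08. The marker mean was itself lower on P49 null arrays. Any probe set with a similar fall would therefore give a small contrast, whichever cells express it. No test was made.

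The channel genes known from Purkinje cells did not all follow. Of the 6 with a tested probe set (Kcnma1, Kcnab1, Kcnn2, Kcna1, Kcna2 and Kcnmb4, the brightest probe set of each), 2 were called lower, and the median difference was -0.16. Over all tested probe sets 0.825% were called lower. Of 7 channel genes known from granule neurons (Kcnd2, Kcnk3, Kcnk1, Kcnj6, Kcnj9, Kcnj3 and Kcnc1), 0 were called in limma, and the median was -0.14, while 0 of 9 granule neuron markers were called, and 0 of either list had an unadjusted p under 0.05. Of 9 tested microglial markers, all 9 had positive differences and 8 were called higher in P49 null arrays, with summed intensities of 139887 to 177577, against 29052 to 31550 on P49 WT arrays. Markers of astrocytes and Bergmann glia summed to 398007 to 453755 on P49 null arrays, against 284020 to 297975 on P49 WT arrays, with 2 of 11 called higher (Gfap and Aqp4) and 5 at an unadjusted p under 0.05. Interneuron markers summed to 189487 to 209601 on P49 null arrays, against 230051 to 241734 on P49 WT arrays; 6 of 8 differences were negative, 0 were called in limma and 2 (Pvalb and Gad1) had an unadjusted p under 0.05. Oligodendrocyte markers summed to 390153 to 393399 on P49 null arrays, against 400596 to 424616 on P49 WT arrays, with 0 of 10 called in limma and 2 at an unadjusted p under 0.05. At P49 the sums of these microglial, astrocyte, interneuron and oligodendrocyte lists did not overlap between the genotypes. Nor did those of Purkinje cells and choroid plexus. The sums overlapped for granule neurons, granule precursors, oligodendrocyte precursors, endothelial and mural cells, and brainstem and deep nuclei. With 3 arrays per group, sums can be apart without a difference, and the sums were not tested. The channel genes known from microglia (Kcnn4, Kcna3 and Kcnk13) and from vessels (Kcnj8 and Kcnmb1) were all below the filter. The part of these cell types in the channel values was not tested.

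**Figure D3:**
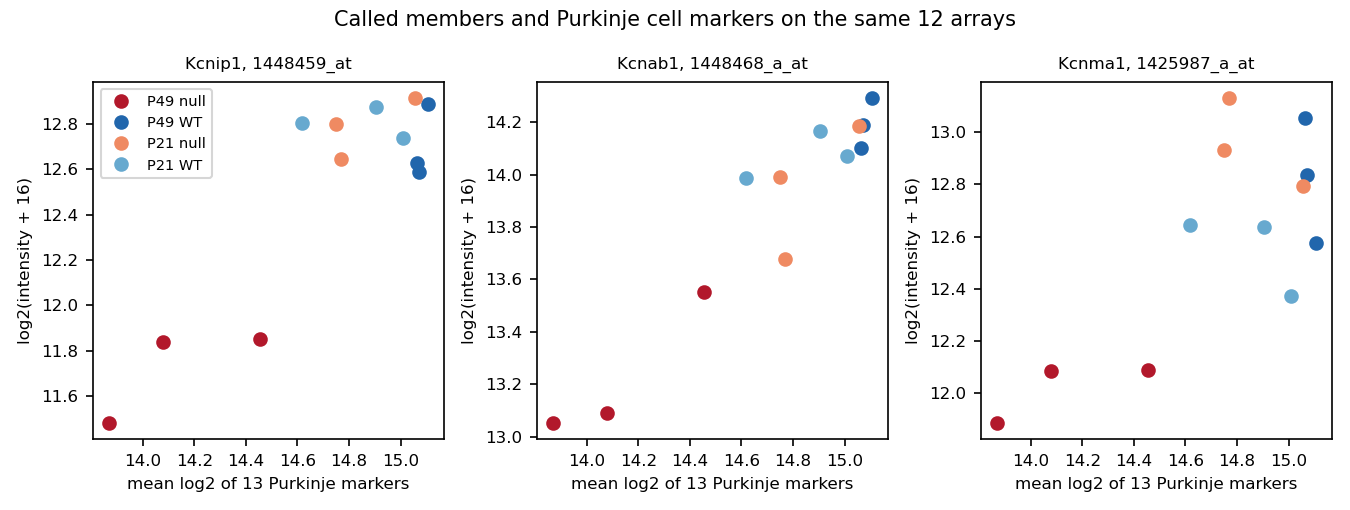
Log2(intensity + 16) of a probe set of Kcnip1, Kcnab1 and Kcnma1 (vertical axes) against the mean log2 level of 13 Purkinje cell markers (horizontal axes) on each of the 12 arrays, coloured by group. The 3 P49 null arrays have the lowest marker means, 13.87 to 14.45, and the lowest channel levels in each panel. The probe sets shown were chosen among those whose P49 genotype groups did not overlap. The arrays share tissue and processing, and no correlation is drawn.

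At P21 no member passed. In limma 0 of 41 were called in either direction, where 0.081% of all tested probe sets were called. An unadjusted limma p under 0.05 was held by 3 of the 41, and by 1335 of all 13576 tested probe sets. The median difference was 0.11, against -0.01 over all tested probe sets, and 25 of 41 differences were positive. Kcnip1 (1448459_at), which was called at P49, differed by -0.02 ± 0.14, and Kcnab1 (1448468_a_at) by -0.12 ± 0.15.

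Kcnk3 (1426058_a_at) had the lowest p at P21 and read 10.90, 11.90 and 10.92 on P21 null arrays, against 10.48, 10.32 and 10.66 on P21 WT arrays. Null replicate 2 stood well above the others, and the difference was 0.76 ± 0.27 (adjusted p = 0.434). Its probe set 1425341_at differed by 0.45 ± 0.21 (adjusted p = 0.511). Kcnma1 was in the direction opposite to that at P49. Probe set 1425987_a_at read 12.93, 13.13 and 12.79 on P21 null arrays, against 12.64, 12.37 and 12.64 on P21 WT arrays. These groups were apart, but the difference of 0.40 ± 0.15 did not pass (adjusted p = 0.442), nor did the 0.39 ± 0.20 of 1424848_at (adjusted p = 0.521). Kcne1l differed by 0.43 ± 0.19 (adjusted p = 0.503).

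On the negative side at P21 stood Kcnab3, Kcnip4, Kcnc1 and Kcnab1. Kcnab3 read 10.24, 7.90 and 11.13 on P21 null arrays, against 10.71, 10.50 and 10.25 on P21 WT arrays. Its difference of -0.73 ± 0.57 came with an SD of 1.67 in the null group, where replicate 2 lay far below the others (adjusted p = 0.653). Kcnip4 differed by -0.14 in both probe sets, and Kcnc1 by -0.25 ± 0.27. Without the 3 doubtful P21 arrays, the count at P21 was again 0, with 1 null array left, whose spread is assumed to equal that of the other groups.

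The genotype difference itself differed between the ages in Kcnma1. The interaction, the P49 difference minus the P21 difference, was -1.20 ± 0.21 for 1425987_a_at (adjusted p = 0.0216) and -1.47 ± 0.28 for 1424848_at (adjusted p = 0.0378). These were 2 of 41 members called lower, or 4.88%, where 0.162% of all tested probe sets were called lower. No member was called higher in limma, where 0.265% of all were called higher. An unadjusted limma p under 0.05 was held in either direction by 9 of the 41, and by 1049 of all 13576 tested probe sets. Of these members, Kcnk2 alone had a positive interaction.

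The interaction call of Kcnma1 depended on single arrays and, for 1 probe set, on the processing. It failed for both probe sets without the 3 doubtful P21 arrays, where the values were -1.09 and -1.42 and the adjusted p 0.0743 and 0.0739. For 1425987_a_at it also failed without P21 WT replicate 1 (0.0537), 2 (0.0615) or 3 (0.0571), P49 WT replicate 1 (0.0753) or 3 (0.0722), and P49 null replicate 2 (0.0921) or 3 (0.0689), and it passed in 14 of 22 settings. For 1424848_at it passed in 7 of 21 settings, with adjusted p between 0.0208 and 0.138. With all arrays kept, it failed there with 75th-percentile centring (0.0508), no filter (0.0540), no mean-variance trend (0.0666) and the replicate block (0.0744). It also failed without P21 WT replicate 1 (0.105) or 2 (0.108), P21 null replicate 1 (0.0541), P49 WT replicate 1 (0.0879), 2 (0.135) or 3 (0.109), and P49 null replicate 1 (0.0575), 2 (0.138) or 3 (0.108). The sign was the same throughout.

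Other members with low p for the interaction did not pass. Kcnip1 had -0.96 ± 0.19 in 1448459_at (adjusted p = 0.0520) and -0.86 ± 0.22 in 1416785_at (0.143), and Kcnab1 had -0.84 ± 0.21 in 1448468_a_at (0.143). The first of these passed with the filter at the 60th percentile (0.0423) and the brightest probe set of each gene (0.0393), and without P21 null replicate 2 (0.0254) or P49 null replicate 1 (0.0496), the second without P21 null replicate 1 (0.0460), and the third without P21 null replicate 2 (0.0318) or P49 null replicate 1 (0.0361). On the positive side were Kcnk2 (0.72 ± 0.30), Kcnab3 (1.01 ± 0.81), Kcnn2 (0.25 ± 0.25), Kcnip3 (0.24 ± 0.33) and Kcnd2 (0.07 ± 0.18), none of which passed. The median of the 41 interactions was -0.23, against 0.00 over all tested probe sets, and 34 of 41 were negative.

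Between P21 and P49 the same 3 genes fell in null cerebellum, with the P49 null arrays shared between this comparison and the genotype comparison at P49. In null mice 5 of 41 members were called lower at P49 than at P21, 12.2% where 2.45% of all tested probe sets were called lower. Kcnip1 fell by 1.06 (1448459_at, SE 0.14, adjusted p = 0.000766) and by 0.70 (1416785_at, SE 0.15, adjusted p = 0.0193) on the log2 scale, Kcnma1 by 0.93 (1425987_a_at, SE 0.15, adjusted p = 0.00290) and 1.07 (1424848_at, SE 0.20, adjusted p = 0.00809), and Kcnab1 by 0.72 (1448468_a_at, SE 0.15, adjusted p = 0.0153). In all 5 the P49 null arrays lay below the P21 null arrays. Of 13 Purkinje markers, 11 were called lower in the same contrast. Other marker lists moved too. Of 9 microglial markers 7 were called higher, and of 10 oligodendrocyte markers 2 were called lower. Of 11 markers of astrocytes and Bergmann glia, 2 were called higher and 1 lower. The part of any cell type in the channel values was not tested.

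Some of these age calls rest on few arrays or on the shared fit. With only the 6 null arrays fitted, Kcnma1 1424848_at (adjusted p = 0.0594), Kcnab1 1448468_a_at (0.123) and Kcnip1 1416785_at (0.155) did not pass, which left 2 calls. Without P49 null replicate 2, Kcnma1 1424848_at (adjusted p = 0.0510), Kcnab1 1448468_a_at (0.0914) and Kcnip1 1416785_at (0.101) no longer passed. Kcnab1 1448468_a_at (0.0785) and Kcnip1 1416785_at (0.0737) also failed without P49 null replicate 3. Without the 3 doubtful arrays Kcnip1 1416785_at moved to -0.39 (adjusted p = 0.148), and the other 4 passed (0.00705 to 0.0289).

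Members that were higher at P49 than at P21 in null mice did not pass. In limma 0 of 41 were called higher, where 2.13% of all tested probe sets were called higher. An unadjusted limma p under 0.05 was held in either direction by 13 of the 41, and by 2682 of all 13576 tested probe sets. Of these members, 2 had positive differences (Kcnd2 and Kcnab3). Kcnd2 (1422834_at) read 14.09, 14.10 and 13.89 on P49 null arrays, against 13.41, 13.42 and 13.81 on P21 null arrays. P21 null replicate 3 lay just below the lowest P49 null array, and the difference of 0.48 ± 0.14 missed the threshold (adjusted p = 0.0670). It passed without P21 null replicate 3 (0.61, adjusted p = 0.0183) and without the 3 doubtful arrays (0.61, adjusted p = 0.0380). Kcnab3 differed by 1.39 ± 0.57 (adjusted p = 0.197) and passed without P21 null replicate 3 (2.08, 0.0247), as did Kcnj9 1426115_a_at (0.63, 0.0494). Kcnk2 differed by 0.44 ± 0.21 and Kcna2 by 0.39 ± 0.22. Kcnc1 differed by 0.54 ± 0.27 and, without the 3 doubtful arrays, by 1.19 (adjusted p = 0.0289). Kcna1 differed by -0.46 ± 0.15 (adjusted p = 0.106) and was called lower without P21 null replicate 3 (-0.58, 0.0349), as Kcnab1 1454043_a_at was without P21 null replicate 2 (-0.73, 0.0256).

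In WT mice no member passed between the ages. In limma 0 of 41 were called in either direction, where 0.575% of all tested probe sets were called. An unadjusted limma p under 0.05 was held by 5 of the 41, and by 1265 of all 13576 tested probe sets. The median difference, P49 minus P21, was 0.16, against 0.01 over all tested probe sets, and 30 of 41 were positive. Kcnj9 (1450712_at), a G-protein-gated subunit, read 14.28, 14.23 and 14.26 on P49 WT arrays, against 13.73, 14.04 and 13.89 on P21 WT arrays. The ages were apart, and the difference of 0.37 ± 0.10 (adjusted p = 0.182) passed without the 3 doubtful arrays (0.44, adjusted p = 0.0407).

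Kcnd2 followed with 1450773_at, which read 14.59, 14.82 and 14.63 on P49 WT arrays, against 14.34, 14.27 and 14.44 on P21 WT arrays. The ages did not overlap, but the difference of 0.33 ± 0.09 did not pass (adjusted p = 0.183), nor did the 0.49 ± 0.14 of 1422834_at (adjusted p = 0.209). The third probe set of Kcnd2, 1422835_at, differed by 0.03 ± 0.13. Kcna2 (0.61 ± 0.22) and Kcnh1 (0.56 ± 0.23) did not pass (adjusted p = 0.356 and 0.438). On the negative side were Kcnk1 (-0.27 ± 0.18 and -0.09 ± 0.17), Kcnk2 (-0.29 ± 0.21), Kcnip3 (-0.15 ± 0.15) and Kcnip1 1448459_at (-0.10 ± 0.14). Kcnip1 1416785_at differed by 0.16 ± 0.15, with the ages apart, Kcnma1 by 0.27 ± 0.15 and 0.40 ± 0.20, and Kcnab1 by 0.12 ± 0.15 and 0.15 ± 0.19. The 3 genes that fell with age in null mice thus gave no call in WT mice. A call in null mice alone does not show that the age changes differ between the genotypes. The interaction tests this, and it was called for Kcnma1 but not for Kcnip1 or Kcnab1.

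**Figure D4:**
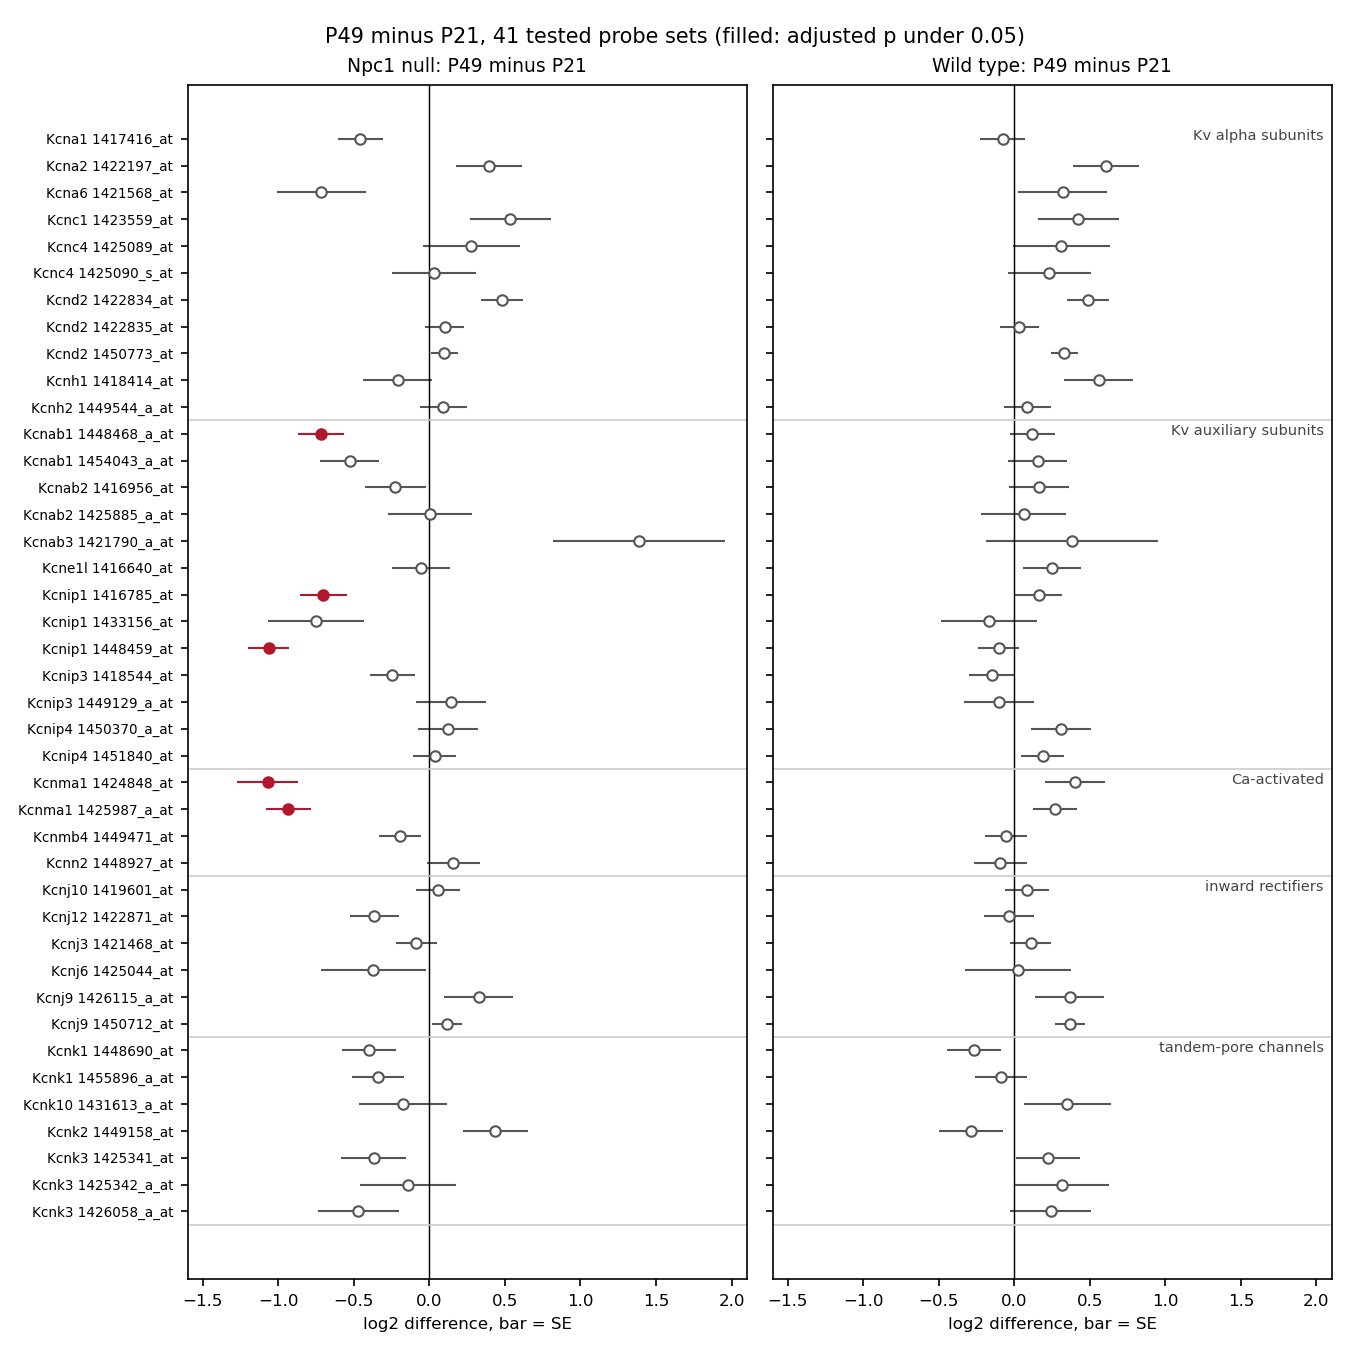
Log2 difference P49 minus P21 with its SE for each of the 41 tested member probe sets, in null mice (left) and WT mice (right), grouped by role. Filled points have an adjusted p under 0.05: they are 5 probe sets of Kcnip1, Kcnab1 and Kcnma1 in null mice, and none in WT mice.

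**Figure D5:**
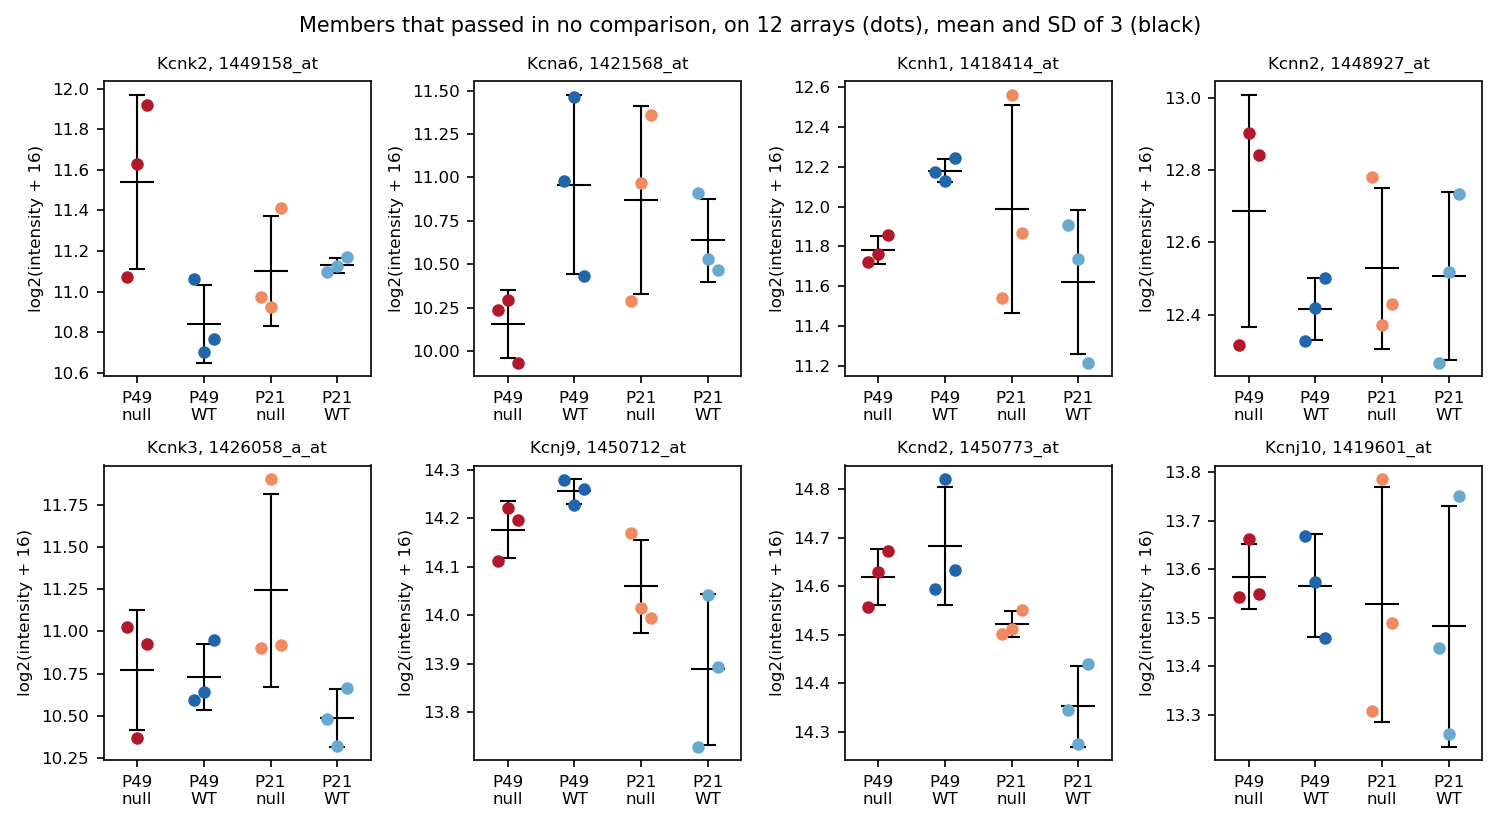
Log2(intensity + 16) of 8 member probe sets that passed in no comparison, on each of the 12 arrays (dots) with the mean and SD of 3 arrays, for P49 null, P49 WT, P21 null and P21 WT. Kcnk2 lies higher and Kcna6 and Kcnh1 lie lower on P49 null than on P49 WT arrays, Kcnj9 and Kcnd2 lie higher on P49 WT than on P21 WT arrays, and the axes do not start at 0.

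Proteins that work with these channels but carry other symbols were read from a fixed list (brightest probe set per gene). At P49, 0 of 16 tested partners were called between genotypes in limma, with 1 at an unadjusted p under 0.05 and a median of -0.05. With age in null mice, 2.45% of all tested probe sets were called lower and 2.13% higher. The partners gave 8 positive and 8 negative differences in that contrast, with a median of 0.003. With age in null mice 3 of 16 were called lower: Adam23, a receptor of the Lgi proteins that organise Shaker-type channels (-0.69 ± 0.17, adjusted p = 0.0366), Ank3, the scaffold of the axon initial segment (-0.59 ± 0.16, 0.0469), and Stx1a, a SNARE protein that also binds Kv channels, read by a probe set of a kind that may match other transcripts (-1.09 ± 0.20, 0.00773). Stx1a was called lower with age in WT mice too (-1.62 ± 0.20, adjusted p = 0.00319), where 0.575% of all tested probe sets were called in either direction. Among other potassium transport genes, 1 of 11 was called higher in P49 null arrays, namely Fxyd1, a regulator of the sodium-potassium pump (0.78 ± 0.14, adjusted p = 0.00799). Over all tested probe sets 1.26% were called higher in that contrast. With age in null mice Fxyd1 (0.86 ± 0.14, 0.00400) and Fxyd6 (0.56 ± 0.15, 0.0485) rose and Fxyd7 fell (-1.48 ± 0.14, 7.7e-05), and Fxyd7 was called lower with age in WT mice as well (-1.07 ± 0.14, 0.00400).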

How the data were processed

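RNA from whole cerebellum was labelled with biotin and hybridised to 12 Affymetrix arrays, 1 per animal, per the labels. The authors deposited 1 linear intensity per probe set and array; how probes were summarised and scaled is not given in the sources used here, and the 2%-trimmed array means were 5002. No pair of arrays had more than 33 identical values among 22690 probe sets. Depth has no meaning for arrays, whose number limits the precision. One protocol text gives P21 for all animals, and the time point labels were used.

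From these intensities log2(value + 16) was computed, quantile normalized, and fitted per probe set in limma 3.58.1 (R 4.3.3) with contrasts of 4 group means over 12 arrays and eBayes with a mean-variance trend; folds on this scale are smaller than the true ones for dim probe sets. Tests are two-sided, Benjamini-Hochberg adjusted over 13576 probe sets, with a threshold of 0.05; the fit was tested on simulated data. Genes were named through the platform annotation, updated by Entrez identifier with RefSeq (all 89 members matched); 20380 probe sets have 1 symbol, 691 several and 1555 none listed. The probe sets described are the called ones, in each direction of each comparison the 5 of lowest p, list members and all probe sets of called genes. The members and lists were chosen with earlier results of these data known. Promoter windows come from RefSeq (GRCm38.p6).

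Same-numbered animals of different groups correlated between -0.29 and 0.17 in their deviations (18 pairs), against -0.21 to 0.31 in 36 other pairs. These values gave no sign of pairing by number but cannot exclude it. The labels give no pairing, and the animals were treated as unpaired. There were 23 alternatives, of which 12 leave out 1 array each.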

Additional observations from a re-analysis of the deposited data

Results flagged for a closer look

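The genotype difference of Kcnma1 differed between the ages by an interaction test in limma. The P49 difference minus the P21 difference was -1.20 for 1425987_a_at and -1.47 for 1424848_at (adjusted p = 0.0216 and 0.0378). Kcnma1 1425987_a_at had a mean of 12.02 in P49 null arrays and 12.82 in P49 WT arrays, and of 12.95 in P21 null arrays and 12.55 in P21 WT arrays. Kcnma1 1424848_at had a mean of 11.12 in P49 null arrays and 12.20 in P49 WT arrays, and of 12.19 in P21 null arrays and 11.80 in P21 WT arrays. Neither interaction passed without the 3 P21 arrays whose sex-linked genes put their label in doubt (adjusted p = 0.0743 and 0.0739), over ranges of 0.0147 to 0.0921 and 0.0208 to 0.138. That of 1424848_at also failed with 75th-percentile centring, no filter, no mean-variance trend and the replicate block (adjusted p = 0.0508 to 0.0744). The P21 difference alone did not pass in either probe set.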

How the results depend on the processing

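Of the 9 counts of called members (higher and lower for each genotype and age contrast, either way for the interaction), no direction turned under any setting. The count lower at P49 was 5 and was 3 with the brightest probe set of each gene, where 27 genes were tested, and 2 to 6 leaving out single arrays. The count higher at P49 was 0 and ran from 0 to 1. The interaction count was 2, and was 1 with 75th-percentile centring, with no filter, without the mean-variance trend and with the replicate block, 0 without the 3 doubtful arrays, and 0 to 4 leaving out single arrays. The count lower with age in null mice was 5, and was 3 with the brightest probe set, 2 with only the arrays compared, and 2 to 6 leaving out single arrays. The count higher with age in null mice was 0, and was 2 without the 3 doubtful arrays and 0 to 3 leaving out single arrays. The count higher with age in WT mice was 0 and was 1 without the 3 doubtful arrays. With the brightest probe set, further probe sets of a gene are not counted, and with only the arrays compared or with arrays left out fewer arrays enter; the cause of the other changes was not tested. With the replicate block, Kcnma1 1424848_at lost the interaction (adjusted p = 0.0744) and no other member call changed.

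Limits: each group has 3 arrays, detection calls and signal over background were not used here, and changes of dim probe sets are uncertain. Dropping the 3 doubtful arrays leaves 1 P21 null array.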

Other observations

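Below the filter, with every probe set that is not a control tested (limma, no filter), 0 of the 48 dim members passed in any comparison, and at P49 2 of them (Kcnip1 1454504_at and Kcnj2) had an unadjusted p under 0.05. Kcnip1 1454504_at read 6.23, 6.20 and 8.44 on P49 null arrays, against 9.33, 9.30 and 8.45 on P49 WT arrays, a difference of -2.07 ± 0.58 (adjusted p = 0.136). Null replicate 3 lay just below the lowest WT array. Kcnj2, an inward rectifier, differed by -1.71 ± 0.63 at P49 (adjusted p = 0.352), and Kcnj15, another inward rectifier, by 1.39 ± 0.69 at P49 (adjusted p = 0.581) and 2.42 ± 0.69 at P21 (adjusted p = 0.430). Kcnh7, an erg-type Kv alpha subunit, differed by 1.82 ± 0.66 with age in null mice (adjusted p = 0.195).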
